A study of Mus musculus with 6 samples.

Results

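Six2, Six4, Six5, Eya1, Eya2, Eya3 and Eya4 are the Six-family and Eya genes described here, 7 genes of the 55804 rows in the gene count table, taken by their gene symbol. RNA came from C2C12 cells, a mouse myoblast line, grown in 20% fetal bovine serum and then held for 3 days in differentiation medium with 2% horse serum, in which myoblasts leave the cell cycle and fuse into myotubes. The Ctrl-gRNA group (3 libraries; genotype given as WT) carried a control guide RNA. The Prr33-gRNA group (3 libraries; genotype given as PRR33 knocked down) carried a CRISPR/Cas9 guide RNA against Prr33. The design text speaks of an established knockdown line, and whether each library is its own culture is not stated. The p-values therefore rest on the spread among these libraries, possibly technical, and what the guide did cannot be told apart from what sets one derived line off from another.

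Six-family proteins are homeodomain transcription factors that bind DNA at the MEF3 element of muscle genes. Eya proteins do not bind DNA themselves: they join Six-family proteins as coactivators and also carry a protein tyrosine phosphatase domain. Pax, Eya, Dach and Six-family factors form a network that acts in muscle precursors upstream of the MyoD family, and Six-Eya complexes also take part in switching on fast-muscle genes.

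The MEF3 element was searched as TCAGGTTTC on both strands in RefSeq promoter windows (GRCm38.p6, the same assembly as mm10) that run from 250 bases before to 50 bases after a start site. Windows were found for 5 of the 7 genes: Six2, Six4, Six5, Eya3 and Eya4. Six4 was the 1 member with a match, and Myog, the myogenin gene, was the 1 match among 5 muscle genes listed for described MEF3 sites that had a window. Across all 32851 windows 0.429% held a match. The shorter TCAGGTT, found in 4.07% of all windows, added no further gene of either group. Only exact matches inside these windows were sought, so a listed gene without a match may have its described site elsewhere or in another sequence. The sites are shown because both genes belong to the result, Six4 as a Six-family factor and Myog as a muscle gene with a MEF3 element, with the 9 matching bases in capitals.
Six4 (chr12:73113326-73113354, plus strand): atctggccgaTCAGGTTTCccccaggcca
Myog (chr1:134289910-134289938, plus strand): agaggggggcTCAGGTTTCtgtggcgttg
The Six4 match lay 91 to 99 bases before the RefSeq start at position 73113245, on the strand opposite to the gene. A 2nd RefSeq start of Six4, at position 73113425, had a window with 0 matches, and the Six4 match lies downstream of that start. It falls in a UTR annotated for a Six4 transcript in GENCODE M21. The Myog match lay 76 to 84 bases before its start, on the strand of the gene. The E-box CANNTG, which MyoD-family factors bind, was searched in the same windows, where 72.3% of all windows held at least 1. Six2, Six4 and Six5 had 0 matches. Eya3 had 1, and both overlapping windows of Eya4 held 1, shown with the 6 bases in capitals.
Eya3 (chr4:132638910-132638935, plus strand): gtcaatcacgCAACTGggtctgcgag
Eya4 (chr10:23349931-23349956, minus strand): gtttctccccCACTTGtgtaagctat
A match describes letters in a window and no binding was measured.

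In these cells 5 of the 7 genes were expressed at levels that could be tested, and 4 of the 5 differed between the groups. Eya1, Eya4 and Six5 were higher in Prr33-gRNA, by 1.91-fold, 1.28-fold and 1.31-fold. Six4 was 13.1% lower (edgeR adjusted p = 0.00201), and Eya3 did not pass the test. Across all 14651 tested genes 52.1% were called, 25.5% higher and 26.6% lower (edgeR quasi-likelihood test, Benjamini-Hochberg adjusted p below 0.05). A share of 4 in 5 called genes is read against that background. Total counts ran from 17006381 to 19471762 per library. For the targeted gene, Prr33, the 3 Ctrl-gRNA libraries held 1137, 990 and 913 reads and the 3 Prr33-gRNA libraries 793, 829 and 848 (log2 fold change -0.42, SE 0.06, edgeR adjusted p = 1.37e-06). The Prr33 gene body overlaps that of Tnnt3, on the other strand of chromosome 7. Tnnt3 summed to 86163 reads in Ctrl-gRNA and 57767 in Prr33-gRNA (log2 fold change -0.70, edgeR adjusted p = 1.52e-12). The strand setting is not given, and whether Tnnt3 reads enter the Prr33 counts was not tested. Expression is given below in CPM (read counts scaled to library size with TMM factors) unless FPKM (also scaled to gene length) is named. A positive log2 fold change means a higher level in Prr33-gRNA.

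**Figure D1:**
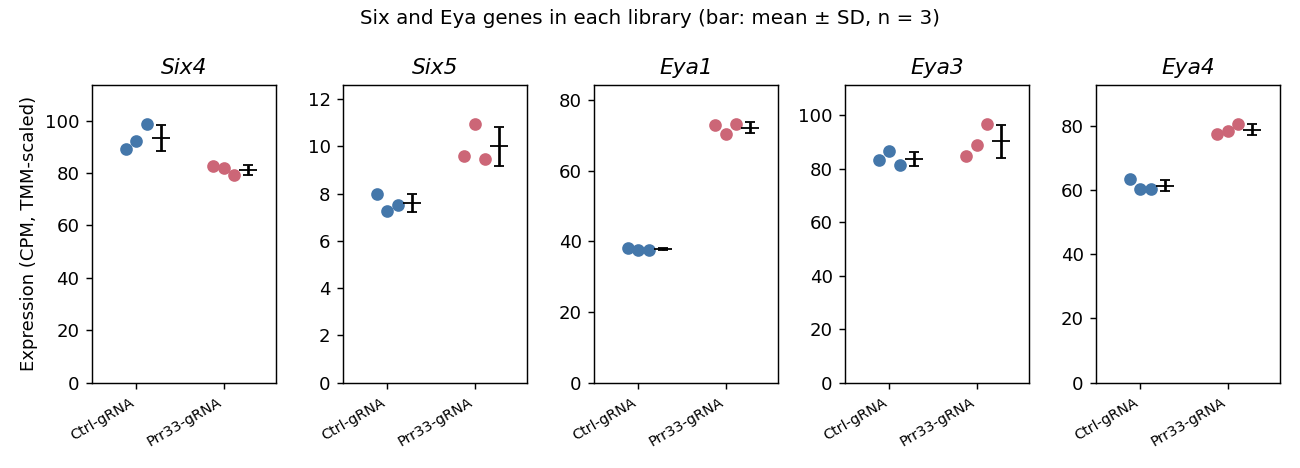
Expression in CPM (vertical axes, from 0) of the 5 tested genes in each library, with the mean ± SD (n = 3) beside the points. Eya1 sits near 38 CPM in the Ctrl-gRNA libraries and between 70.3 and 73.2 CPM in the Prr33-gRNA libraries, and Eya3 is the 1 gene whose groups overlap.

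Eya1, one of the Eya coactivators of the early muscle lineage, had the widest difference among the members. Its level was 38.0, 37.7 and 37.6 CPM in the Ctrl-gRNA libraries and 73.0, 70.3 and 73.2 CPM in the Prr33-gRNA libraries. Every Prr33-gRNA library lay above every Ctrl-gRNA library. The means were 37.8 ± 0.234 (SD, n = 3) and 72.2 ± 1.61 CPM (SD, n = 3), a log2 fold change of 0.93 (SE 0.06, edgeR adjusted p = 4.01e-15). Among all tested genes, 12.5% had a larger absolute log2 fold change. Eya1 (ENSMUSG00000025932) is a minus-strand gene of chromosome 1, from 14168954 to 14310235 (mm10), with 9 transcripts in GENCODE M21, of which 8 are coding. The counts are per gene and do not separate these transcripts.

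Eya4, a second coactivator of this family, rose by less. Its level was 63.4, 60.3 and 60.4 CPM in Ctrl-gRNA and 77.3, 78.5 and 80.6 CPM in Prr33-gRNA, with no overlap between the groups. The means were 61.4 ± 1.77 (SD, n = 3) and 78.8 ± 1.69 CPM (SD, n = 3), a log2 fold change of 0.36 (SE 0.06, edgeR adjusted p = 1.54e-06). Eya4 (ENSMUSG00000010461) spans 23102963 to 23350786 on the minus strand of chromosome 10.

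Eya3, the member with the highest level per length, did not pass the test. It had 83.4, 86.6 and 81.4 CPM in Ctrl-gRNA and 84.8, 89.0 and 96.8 CPM in Prr33-gRNA, so the lowest Prr33-gRNA library lay inside the Ctrl-gRNA range. The log2 fold change was 0.11 (95% interval -0.01 to 0.22, edgeR adjusted p = 0.107), which leaves a rise of up to that size possible. The call appeared under library-size scaling (0.20, edgeR adjusted p = 0.00318) and without Prr33-gRNA replicate 1 (0.15, edgeR adjusted p = 0.0451). Eya3 lies on chromosome 4 at 132638987 to 132724765. Its end is 132 bases from the end of Xkr8, a gene on the other strand, but 0 of its 5647 annotated exonic bases overlap an exon of another gene.

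Eya2 was close to absent. It had 0 counts in each Ctrl-gRNA library and 1, 0 and 0 counts in the Prr33-gRNA libraries. A count of 0 in a Ctrl-gRNA library allows up to 3 counts, or 0.162 to 0.182 CPM, and covers counting error only. Eya2 did not enter the test.

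Six4, a Six-family factor known to bind the muscle creatine kinase enhancer, fell slightly. Its level was 89.3, 92.1 and 98.8 CPM in Ctrl-gRNA and 82.7, 81.8 and 79.1 CPM in Prr33-gRNA. The Prr33-gRNA libraries all lay below the Ctrl-gRNA libraries. The means were 93.4 ± 4.87 (SD, n = 3) and 81.2 ± 1.83 CPM (SD, n = 3), a log2 fold change of -0.20 (SE 0.05, edgeR adjusted p = 0.00201). Among all tested genes 60.6% had a larger absolute change. The call was lost when libraries were scaled by size alone (-0.11, edgeR adjusted p = 0.0746). Six4 (ENSMUSG00000034460) runs from 73099609 to 73113456 on chromosome 12, minus strand.

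Six5, best known as the neighbour of the myotonic dystrophy kinase gene Dmpk, was the least abundant tested member. Its read counts were 148, 120 and 126 for Ctrl-gRNA against 176, 198 and 189 for Prr33-gRNA. In CPM these were 8.004, 7.28 and 7.50 against 9.57, 10.96 and 9.46, with no overlap, and Prr33-gRNA replicate 2 was the highest. That is a log2 fold change of 0.39, with an SE of 0.14 (edgeR adjusted p = 0.0155). The call was lost with Ctrl-gRNA replicate 2 left out (0.37, edgeR adjusted p = 0.0593), with Prr33-gRNA replicate 2 left out (0.33, edgeR adjusted p = 0.0719) and in DESeq2 (0.40, adjusted p = 0.0557).

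Six2, a factor of kidney and mesenchyme progenitors, had 0 counts in all 6 libraries, which allows up to 0.150 to 0.182 CPM per library. It lies on chromosome 17 at 85684277 to 85688274. Of the 5 tested members the CPM ranges of the groups did not overlap in 4, where the share over all tested genes was 57.9%. They lay apart upward in 3 (28.6% of all tested genes) and downward in 1 (29.3%).

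**Figure D2:**
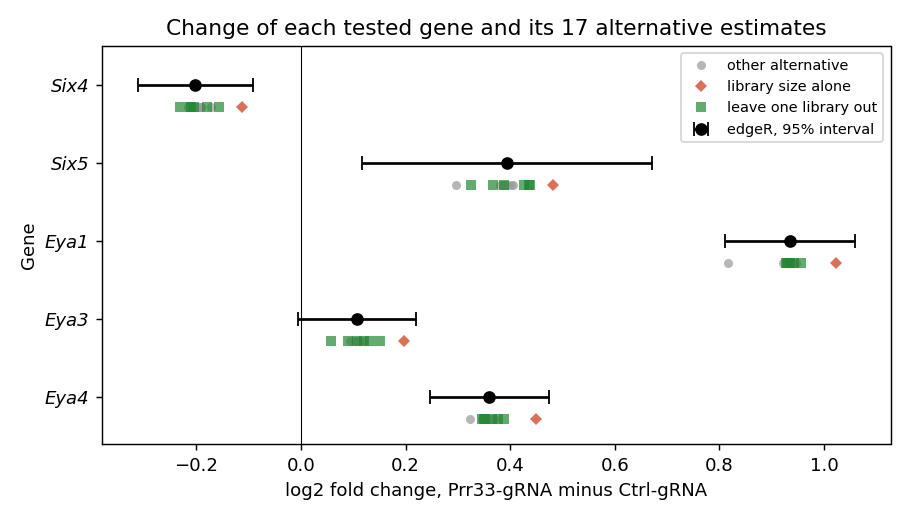
Log2 fold change (horizontal axis) of the 5 tested genes, with the edgeR estimate and its 95% interval in black and the 17 alternative estimates below each. Only the interval of Eya3 includes 0 in this plot, and scaling by library size alone moves each of the 5 genes upward.

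Compared per length, the order of the members changed between the groups. In Ctrl-gRNA the deposited FPKM values ranked Eya3 (14.7 ± 0.435), Six4 (8.54 ± 0.470), Eya4 (6.47 ± 0.173), Eya1 (4.80 ± 0.0189) and Six5 (2.51 ± 0.119), each mean ± SD with n = 3. The ranges of neighbours in this order did not overlap, apart from Six2 and Eya2, both listed at 0. In Prr33-gRNA the order was Eya3 (15.9 ± 1.04), Eya1 (9.21 ± 0.191), Eya4 (8.34 ± 0.160), Six4 (7.46 ± 0.186) and Six5 (3.31 ± 0.283). Eya1 FPKM thus stood below Six4 FPKM in every Ctrl-gRNA library and above it in every Prr33-gRNA library. In CPM, Eya1 stayed below Six4 in the Prr33-gRNA libraries too (73.0, 70.3 and 73.2 against 82.7, 81.8 and 79.1). The order between genes therefore depends on the lengths used, 7808 bases for Eya1 and 10855 for Six4, which cover all annotated exons. The ratio of Eya1 to Six4 FPKM was 0.592, 0.569 and 0.529 in Ctrl-gRNA, against 1.23, 1.20 and 1.29 in Prr33-gRNA.

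**Figure D3:**
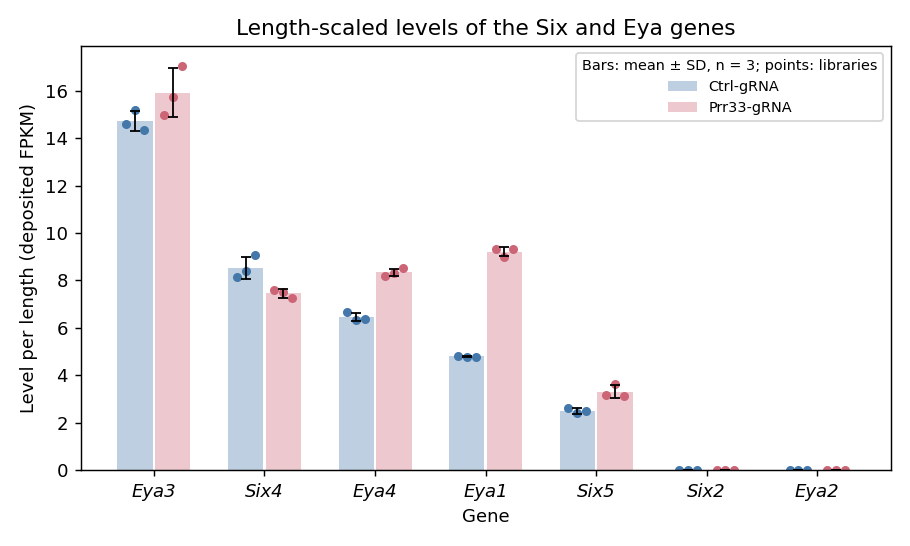
Deposited FPKM (vertical axis, from 0) of all 7 genes, ordered by their Ctrl-gRNA mean, with bars for the mean ± SD (n = 3) and points for libraries. Eya3 leads in both groups, and Eya1 moves from 4.80 to 9.21 FPKM while Six4 goes from 8.54 to 7.46.

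The summed FPKM of Eya1, Eya2, Eya3 and Eya4 was 26.1, 26.3 and 25.5 in Ctrl-gRNA, against 32.5, 33.04 and 34.9 in Prr33-gRNA. That of Six2, Six4 and Six5 was 10.8, 10.8 and 11.5 against 10.8, 11.2 and 10.4, so the Eya sums lay apart and the others overlapped. Eya1 supplied 18.5% ± 0.299 of its family's sum in Ctrl-gRNA and 27.5% ± 1.01 in Prr33-gRNA (SD, n = 3). Eya3 went from 56.6% ± 0.942 to 47.5% ± 1.39, while Eya4 stood at 24.9% ± 0.725 and 24.9% ± 0.447. Six5 made up 22.7% ± 1.53 and 30.7% ± 1.64 of the sum of Six2, Six4 and Six5. For Eya1, Eya3, Six4 and Six5 the two-sided exact permutation test gave p = 0.1, the smallest that 3 against 3 libraries allow. Adjusted over the 6 shares tested, each was 0.15. With 3 libraries a group no share could pass the threshold, whatever its values, so this test cannot decide whether the shares differ. The group ranges of the Eya1, Eya3, Six4 and Six5 shares did not overlap. With Six2 at 0 the Six4 and Six5 shares mirror each other (-8.02 and 8.02 percentage points), so the 6 tests are not independent. The exact permutation test gave p = 1 for Eya2 and Eya4.

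For each member averaging at least 5 CPM, the genes with the nearest profile were taken by the root mean square distance of centred log2 CPM over the 6 libraries, among 9978 other protein-coding genes. With 2 groups of 3 libraries this likeness mainly reflects the group difference. Nearest to Eya1 were Jade1 (distance 0.02 on the log2 scale), Prkar2b (0.03) and Myf5 (0.04), the MyoD-family gene of undifferentiated myoblasts. Nearest to Eya4 were Tmem183a (0.01), Mpp6 (0.02) and Ahnak (0.02). For Six4 they were Mrps31, Sdad1 and Tnik (0.02 each), for Six5 Nsd1 (0.04), Aprt and Inhbb (0.05 each), and for Eya3 Fkbp7 (0.01), Ccdc71l and Zrsr2 (0.02 each).

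The tested genes within 100 kb of a member were called in both directions. Of 17 such genes 3 rose, 7 fell and 7 did not pass, where 25.5% of all tested genes were higher and 26.6% lower. Among the tested members only Six4, Six5 and Eya3 had such neighbours, and a shared regional change was not tested. Around Six5, which rose, 4 of 10 tested neighbours fell and 1 rose. Dmpk, whose end is 773 bases before the Six5 start, fell from 472 ± 12.5 to 380.4 ± 15.6 CPM (SD, n = 3; log2 fold change -0.31, edgeR adjusted p = 1.51e-07). On the other side Fbxo46, an F-box protein gene 21310 bases away, had a log2 fold change of -0.15 (edgeR adjusted p = 0.298). Around Eya3, 2 of 4 tested neighbours rose and 1 fell. Xkr8, 132 bases away, had -0.15 (edgeR adjusted p = 0.268). Smpdl3b, 8201 bases away, fell by 1.90 (edgeR adjusted p = 9.28e-16). Rpa2, 43567 bases away, rose by 0.45 (edgeR adjusted p = 1.56e-05). Dnajc8, for a splicing-linked chaperone, lies 85245 bases away and rose by 0.12 (edgeR adjusted p = 0.0489). Mnat1, a subunit of the CDK-activating kinase beside Six4, had -0.08 (edgeR adjusted p = 0.346). Zmynd8, a chromatin reader 12425 bases from the nearly absent Eya2, fell by 0.48 (edgeR adjusted p = 2.18e-09). For Eya1 and Eya4 0 genes in that window were tested. Gm22616 and Gm37444 inside Eya1, and Gm24655 inside Eya4, had 12, 1 and 7 counts over all libraries together.

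Partners of the Eya and Six-family proteins were found among both the higher and the lower genes. In a list of Pax, Dach and corepressor genes 3 of 11 tested members rose and 6 fell. Their median log2 fold change was -0.31, beside -0.00227 over all tested genes. Of all tested genes 25.5% were called higher and 26.6% lower. This count and the later counts of list and marker genes are read beside those shares, and no list was tested as a set. Sobp, which encodes a Six-binding protein, rose from 13.9 ± 1.74 to 29.1 ± 2.67 CPM (SD, n = 3; log2 fold change 1.06, edgeR adjusted p = 4.89e-11). Ski, a corepressor related to Dach proteins, rose by 0.40 (edgeR adjusted p = 5.84e-09). Dach1, the corepressor partner, fell from 4.17 ± 1.16 to 0.421 ± 0.137 CPM (-3.27, edgeR adjusted p = 2.67e-10). At these low counts the size of the Dach1 change depended on the scale: it was -2.06 on log2(FPKM + 0.1) and -0.56 on log2(FPKM + 1) in limma. Tle5, of the Groucho family, fell by 0.31 (edgeR adjusted p = 2.45e-07). Dach1 lies on chromosome 14, where 361 of the 400 protein-coding genes tested were lower and 10 higher (median -0.90). The Ctrl-gRNA libraries held 71, 90 and 54 Dach1 reads and the Prr33-gRNA libraries 8, 5 and 11.

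Of 7 muscle genes listed for described MEF3 sites 3 rose and 4 fell, with a median of -0.21. Myog, which drives terminal differentiation and carries the site printed above, fell from 1186 ± 86.2 to 384 ± 23.0 CPM (SD, n = 3; log2 fold change -1.63), and Myod1, the lineage factor, fell by 1.59. Myf5 rose from 76.5 ± 0.627 to 153 ± 7.75 CPM (1.003), and Myf6, the late factor Mrf4, rose from 1.23 ± 0.353 to 4.93 ± 1.11 CPM (1.99, or 1.31 on log2(FPKM + 1) in limma). Aldoa, for muscle aldolase, fell by 0.21 (by 0.12 under library-size scaling), and Ckm, for muscle creatine kinase, rose by 0.24. Tnnc1, for slow troponin C, fell by 1.26 and is also on chromosome 14. The edgeR adjusted p-values of these 7 genes ran from 1.54e-23 for Tnnc1 to 5.65e-05 for Aldoa. The 2nd row that bears the symbol Aldoa, with 140 counts in all, was not used.

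The fast-muscle genes were mostly lower. Of 13 tested, 11 fell and 1 rose, with a median of -0.70. Casq1, the calcium buffer of fast fibres, fell from 139 ± 11.96 to 16.4 ± 1.71 CPM (-3.09), and Myh1 and Actn3, for a fast myosin and the fast-fibre alpha-actinin, fell by 0.96 and 0.71. Myh4, the fastest adult myosin, was the 1 that rose, from 34.2 ± 2.96 to 179 ± 5.31 CPM (2.38, edgeR adjusted p = 3.91e-27). The slow-muscle list gave 7 of 8 lower and 1 higher, with a median of -0.72. Myh7, the slow myosin on chromosome 14, fell by 4.09, and Myl2, Casq2 and Myl6b fell by 1.38, 0.75 and 0.69. The 1 slow gene that rose, Myh7b (0.24, edgeR adjusted p = 0.0345), was not called in DESeq2, on either FPKM scale or when 4 of the 6 libraries were left out one at a time.

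Among 7 genes tied to the Eya phosphatase in the DNA damage response 5 fell and 1 rose, with a median of -0.21. H2ax, the histone whose phosphotyrosine Eya proteins remove, fell from 69.3 ± 2.07 to 38.4 ± 2.51 CPM (SD, n = 3; log2 fold change -0.85, edgeR adjusted p = 1.73e-13). Mapk8, a stress kinase on chromosome 14, and Apbb1, an adaptor protein, fell by 0.84 and 0.44. Smarca5, a chromatin remodeller, rose by 0.37. Of 4 tested growth genes described as targets of Eya or Six-family proteins, Ccna2 (cyclin A2) and Ezr (ezrin) rose by 0.27 and 0.52, Myc fell by 0.38, and Ccnd1 (cyclin D1) had -0.05 (edgeR adjusted p = 0.582).

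**Figure D4:**
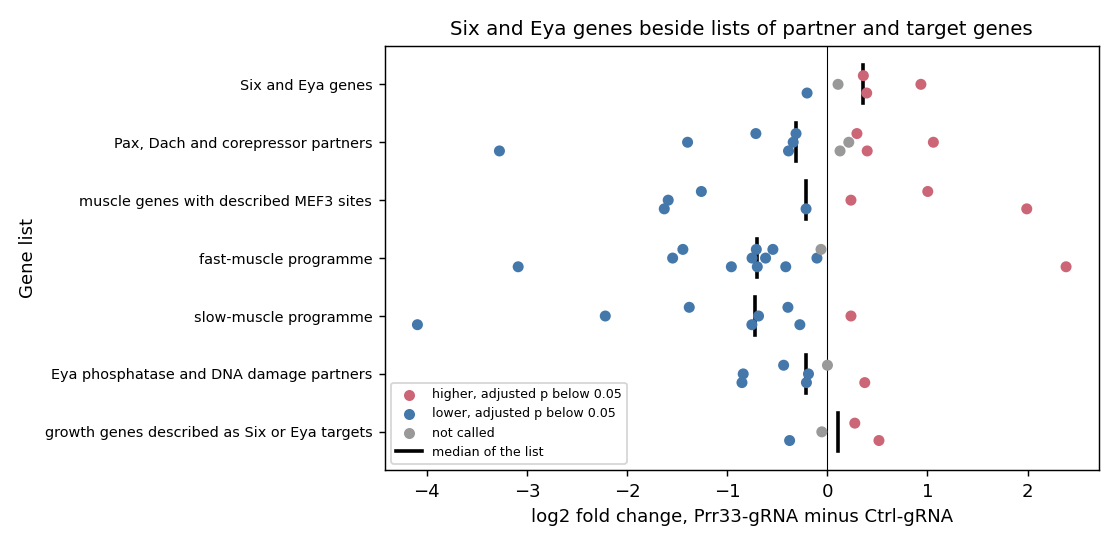
Log2 fold changes (horizontal axis) of the tested genes in each list, 1 point per gene, coloured by the edgeR call, with a black bar at the median. The members run from -0.20 to 0.93, while the fast-muscle and slow-muscle lists have medians of -0.70 and -0.72.

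Markers of cell state also differed between the groups. Of 10 myotube markers 8 fell and 1 rose, and their summed level was 32685 to 33334 CPM in Ctrl-gRNA and 20195 to 21144 CPM in Prr33-gRNA. Of 10 cycling-cell markers 7 rose and 0 fell (1053 to 1114 against 1288 to 1347 CPM). Of 10 markers of undifferentiated myoblasts and reserve cells 4 rose and 5 fell (430.5 to 444 against 492 to 507 CPM). Myf5 had the widest rise within this sum, from 76.5 to 153 CPM. Cd34 fell from 35.8 to 0.985 CPM, and Pax7, Id1, Id3 and Vcam1 fell too, so the higher sum does not describe the list as a whole. For fibroblasts and mesenchymal progenitors, 6 of 7 tested markers were lower and 1 higher (1743 to 1878 against 831 to 898 CPM), with Lum and Tcf21 at 0. In these bulk samples fewer cells of a state and less RNA per cell cannot be told apart, and the part of these markers in the differences of the members was not tested. Ckm, Tnnt1, Myf5 and Pax7 each stand in a marker list and in a pathway list. Blood, endothelial and adipocyte markers summed to at most 6.79, 2.62 and 5.14 CPM in any library, with Ptprc, Emcn and Adipoq at 0, and 0 of the 4 genes tested among them were called. Nerve and glia markers summed to at most 13.7 CPM, with Sox10 at 0.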

How the data were processed

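Whole-number read counts per gene were deposited by the authors, not normalized, with a second table of FPKM values deposited by the authors for the same genes. CASAVA, featureCounts 1.5.0-p3, HISAT2 2.0.5 and the build mm10 are named, without roles, per the submitters' processing notes. The strand setting and annotation release are not given in the sources used here; antisense reads cannot be told apart. Counts were tested with the quasi-likelihood test of edgeR 4.0.16 (robust; R 4.3.3), comparing the 2 groups with no covariate on TMM-scaled libraries of the 14651 genes that filterByExpr kept. Benjamini-Hochberg adjustment covered all of them (threshold 0.05). The SE is the absolute log2 fold change over the square root of F. On simulated counts edgeR recovered 23 of 50 genes changed 1.25-fold, 34 of 50 at 1.5-fold, 43 of 50 at 2-fold and 49 of 50 at 4-fold, with 9 false calls among 14276 genes. In that simulation only these genes changed, the spread followed the fitted trend, and no scaling shift was put in. In the data 52.1% of tested genes were called, so these figures check the code and are not the recovery of this comparison. Counting noise alone did not account for the difference between any 2 libraries of a group (chi-square of 2.88 to 5.66 per gene). FPKM served for levels between genes and for alternative tests with limma 3.58.1. DESeq2 1.42.0 was another alternative. Figures were drawn with matplotlib 3.10.9.

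Named genes were the 7 members, Prr33, up to 4 genes per list with the lowest adjusted p (every gene of the MEF3 list), the 3 nearest profiles per member, genes overlapping a member and the nearest tested gene on each side within 100 kb; 1 neighbour of Six4 is not reported here. Myh7b, Smpdl3b, Rpa2, Tnnt3 and the markers were named after their values were seen. The members and lists were chosen with earlier results of these data known.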

Additional observations from a re-analysis of the deposited data

How the results depend on the processing

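The 17 alternative fits were other scalings, filters, tools, gene sets, a replicate block and leaving out each library. Among 85 member values, 6 crossed the threshold and 0 reversed direction; Eya1 (log2 fold change 0.82 to 1.02) and Eya4 (0.32 to 0.45) passed in each. Scaling by library size alone left 0 members called lower, since Six4 no longer passed, and turned the split of all genes from 3740 higher and 3899 lower into 4999 and 3103. The number of members called higher ran from 2 to 4 over all alternatives. The 1 slow-muscle gene called higher became 0 in DESeq2 and on log2(FPKM + 1) and log2(FPKM + 0.1), and 0 to 1 when single libraries were left out; the cause was not tested. The difference in the Eya4 share, 0.0309 percentage points, ran from -0.360 to 0.355 without single libraries (below 0 when Ctrl-gRNA replicate 2, -0.360, or Prr33-gRNA replicate 1, -0.102, or 2, -0.0948, was left out). Shares from counts per kilobase equal those from FPKM by construction. Other list counts also moved: fast-muscle genes called lower ran from 9 to 11, slow-muscle genes called lower from 6 to 7, partner genes called higher from 2 to 3 and lower from 5 to 6, MEF3-list genes called lower from 3 to 4, and Eya phosphatase genes called lower from 4 to 5. Leaving out chromosome 14 takes 1 gene each out of the partner, MEF3, slow-muscle and Eya phosphatase lists. The list genes named in the text were mostly those with the lowest adjusted p, so their calls say little about how stable the lists are. Deviations of same-numbered libraries had correlations of -0.01, -0.01 and 0.02, beside -0.04 to 0.06 for differently numbered ones. Whether the numbers mark pairs is not stated, and these correlations cannot decide it. With a replicate block 3 members were higher and 1 lower, and 3811 genes higher and 3975 lower. With 3 libraries a group, small changes such as that of Eya3 lie near the limit of what these counts resolve.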
